A study of Rattus norvegicus with 2 samples.

Results

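Wnt ligands, the Frizzled and LRP receptors that bind them, the secreted proteins that hold them back and the intracellular genes *Axin2*, *Ctnnb1* and *Lef1* were followed in rat retina after ischemia-reperfusion (IR) injury. The members were chosen by name. They were the genes whose symbol starts with Wnt, Fzd, Sfrp, Dkk or Axin followed by a digit, together with *Frzb*, *Lrp5*, *Lrp6*, *Lef1*, *Wif1* and *Ctnnb1*, and 43 of the 32662 genes in the deposited table met this rule. The table holds 1 RNA-seq library per condition, both from Long-Evans rats 2 months old, which the study's methods describe as female. CTRL came from a retina given a sham procedure, and IR12 from a retina collected 12 hours after blood flow was restored. The sources used here do not say whether both retinas came from 1 animal. Each library was made from 350 ng of total RNA, from which ribosomal RNA was removed, and sequenced as single-end reads of 150 bp. The sample labels name a total RNA kit, while the description of the series names an mRNA kit.

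Wnt proteins are secreted, lipid-modified signals that bind a Frizzled receptor together with the co-receptor LRP5 or LRP6. In the canonical branch this keeps a destruction complex, built on the scaffolds Axin and APC, from marking β-catenin for degradation, and β-catenin then switches on genes together with TCF and LEF factors, while other branches act on planar cell polarity and on calcium. In the retina, FZD4 and LRP5 also carry the signal of Norrin, a ligand outside the Wnt family that is needed for retinal vessel growth, and Wnt signals have been studied in the injury response of Müller glia, the main glial cells of the retina.

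Expression is given as FPKM, a measure scaled by transcript length and library size. Ratios are log2 of (FPKM + 1) in IR12 over (FPKM + 1) in CTRL, which makes the ratios of weakly expressed genes smaller than those of their raw FPKM. A gene was counted as measured when it reached an FPKM of 1 in either library, and as higher or lower when it passed a 2-fold change on this scale. Because there was 1 library per condition, no difference has a replicate check and no p-value was computed. Both libraries carried the RNA of retina. *Gnat1*, the gene for the transducin subunit of rods, had an FPKM of 4027 in CTRL against 4237 in IR12. *Nrl*, a transcription factor gene of rods, had 54.1 in CTRL and 39.4 in IR12, and neither passed 2-fold as deposited. *Sag*, the gene for rod arrestin, had 2482 in CTRL and 4703 in IR12 and passed 2-fold on the TPM scale alone (log2 ratio 1.57). However, *Otx2*, a transcription factor of photoreceptors and bipolar cells, is listed at 0 in both libraries, so a gene listed at 0 may still have been expressed.

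The table gives no read counts, but the values of single-exon genes move in steps of single reads. Over 1067 olfactory receptor genes, the step showed that 1 read was worth 1.71 times as much FPKM in CTRL as in IR12, read from 25 genes above 0 in both libraries. For a single-exon gene of 2000 bp, an FPKM of 1 thus rested on about 27.7 reads in CTRL and 47.3 in IR12. Low members therefore rest on fewer reads in CTRL than in IR12 at the same FPKM.

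Of the 43 members, 17 were measured, and 26 stayed under an FPKM of 1 in both libraries, 7 of them listed at 0 in both. None of the 17 was 2-fold higher in IR12 and 4 were 2-fold lower, compared with 6.56% higher and 6.12% lower among all 13599 measured genes. The 4 were the receptor gene *Fzd1* and the inhibitor genes *Frzb*, *Sfrp1* and *Dkk3*, which make up 23.5% of the measured members. The median log2 ratio was -0.35 over the 17 members and 0.02 over all measured genes. As deposited, 15 of the 17 members (88.2%) had a lower FPKM in IR12, as had 48.2% of all measured genes, whereas on a TPM scale, with each column rescaled to 1 common total, 8 of the 17 (47.1%) were lower, as were 15.7% of all measured genes. The rescaling raises each IR12 value, relative to CTRL, by a log2 shift of 0.65, and genes for small non-coding RNAs hold 67.9% of the FPKM total in CTRL and 46.0% in IR12. Over genes past the minimum on the TPM scale itself, the medians were 0.03 for 16 members and 0.60 for all genes, so on both scales the median member lay under the median gene. Calls on the TPM scale came to 1 higher member, *Ctnnb1*, and 3 lower members, against 21.0% higher and 3.23% lower among 13492 genes. With small RNAs left out of the total the shift was -0.10, and 15 of the 17 members were again lower, as were 55.4% of all measured genes. *Fzd1*, *Fzd5*, *Fzd7* and *Sfrp1* reached an FPKM of 1 in CTRL alone and so were bound to be lower in IR12 as deposited. Among the 13 members at 1 or above in both libraries, 11 (84.6%) were lower as deposited, as were 47.7% of the 12243 genes at 1 or above in both.

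**Figure D1:**
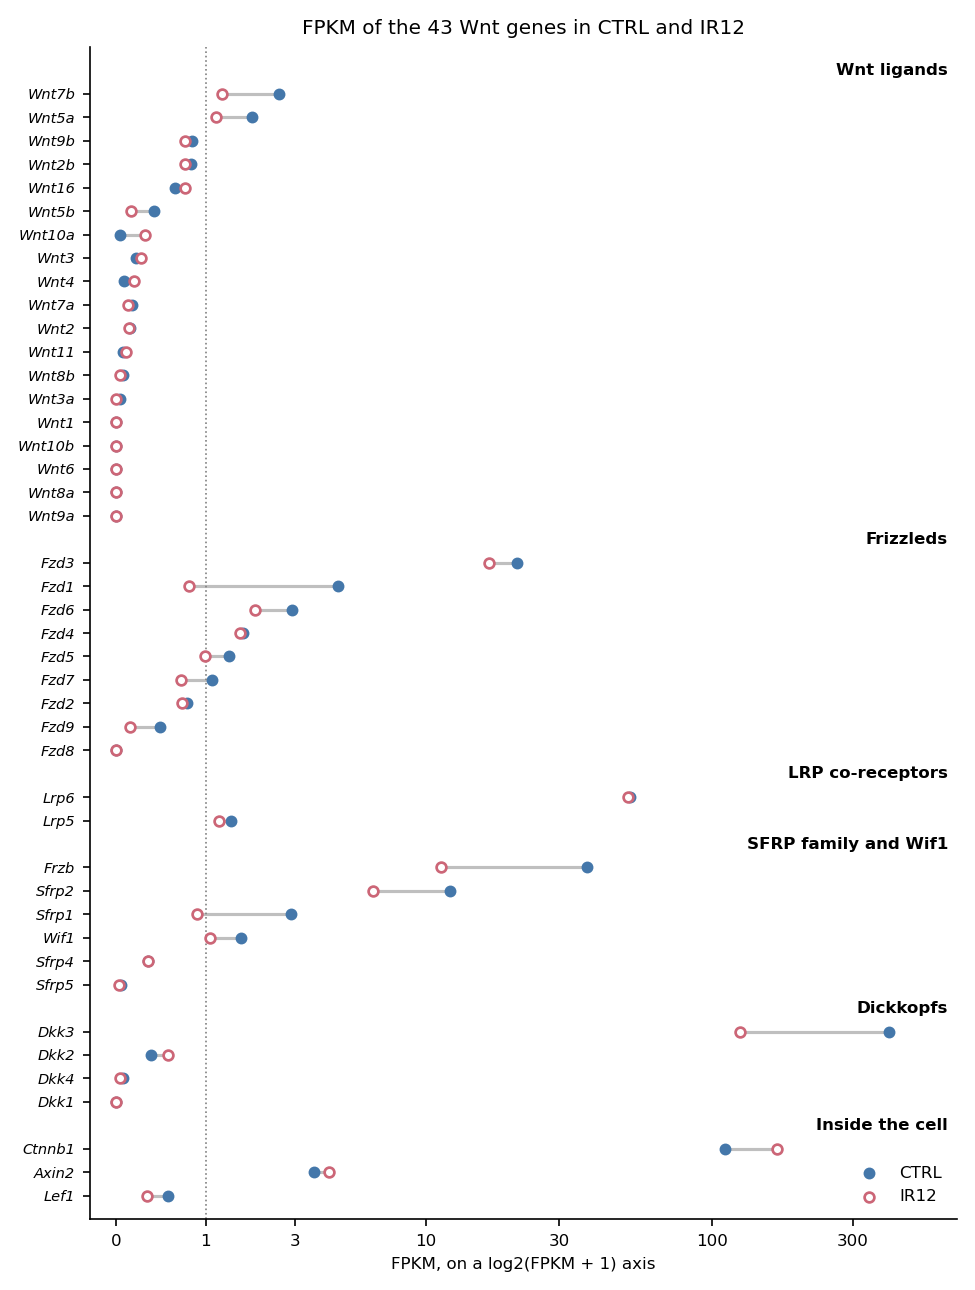
FPKM of all 43 members in CTRL (filled blue points) and IR12 (open red points), 1 library each, on a log2(FPKM + 1) axis and grouped by role, with a grey line joining the values of 1 gene and a dotted line at an FPKM of 1. *Dkk3*, *Ctnnb1*, *Lrp6* and *Frzb* lie farthest to the right in CTRL, and most ligands lie left of the dotted line.

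**Figure D2:**
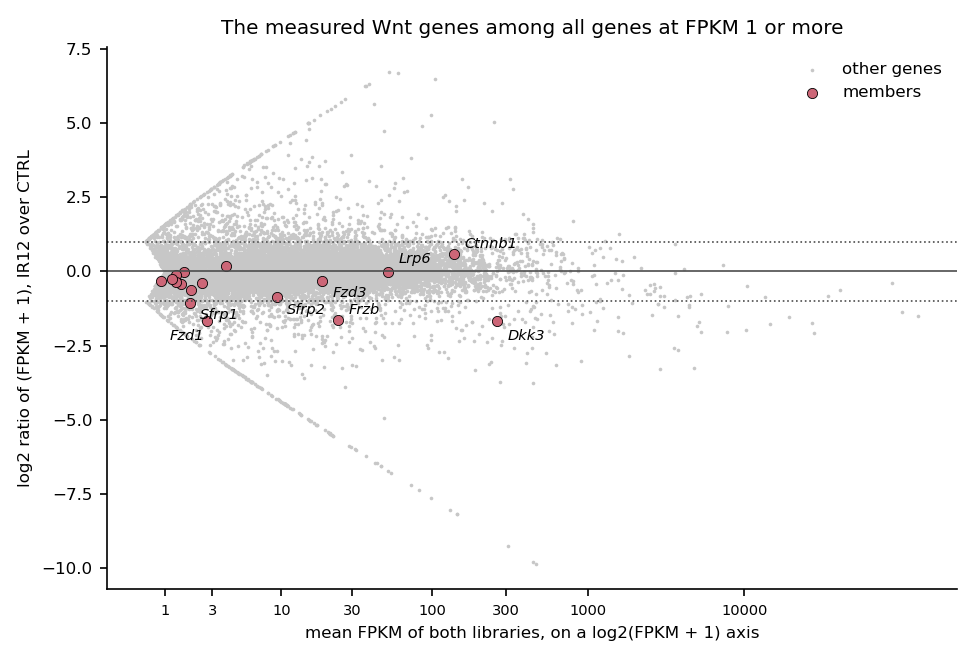
Log2 ratio of (FPKM + 1), IR12 over CTRL, against the mean FPKM of both libraries for all 13599 measured genes, with the 17 measured members in red and dotted lines at 2-fold. *Fzd1*, *Frzb*, *Sfrp1* and *Dkk3* lie under the lower dotted line, and no member lies above the upper one; on the TPM scale *Ctnnb1* would pass it and *Sfrp1* would not.

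The ligands formed the largest group, and most of them were low. Summed over the 19 Wnt genes in the table, FPKM was 7.54 in CTRL and 5.56 in IR12, or 1.14% and 1.40% of the summed FPKM of all members. *Wnt7b*, a ligand of the canonical branch, had an FPKM of 2.54 in CTRL against 1.27 in IR12. Its raw FPKM was thus 2.00 times as high in CTRL, but with the pseudocount its log2 ratio was -0.64. *Wnt5a*, the best known ligand of the β-catenin-independent branches, had 1.87 in CTRL and 1.16 in IR12 (log2 ratio -0.41 as deposited and -0.02 on the TPM scale). These were the measured ligands, and neither passed 2-fold on either scale.

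The other ligands stayed under 1, with the highest value, 0.790, in *Wnt9b* in CTRL. *Wnt9b* had 0.700 in IR12. *Wnt2b*, a ligand of the ciliary margin in the embryonic eye, had 0.785 in CTRL and 0.701 in IR12, and its listed locus overlaps *Capza1* and *St7l*, so its reads could have been shared with them. *Wnt16* was slightly higher in IR12, with 0.578 in CTRL and 0.703 in IR12. The next in order differed more between the libraries but rested on few reads. *Wnt5b*, a close relative of *Wnt5a*, had 0.338 in CTRL and 0.119 in IR12. *Wnt10a* had 0.0287 in CTRL and 0.252 in IR12, and its raw ratio of 8.78 was the highest of the members that have one. *Wnt3*, *Wnt7a*, *Wnt2*, *Wnt4*, *Wnt11*, *Wnt8b* and *Wnt3a* lay between 0 and 0.207 in both libraries. For *Wnt8b* the raw ratio of CTRL to IR12 was 1.71, the value that an equal number of reads in each library gives. *Wnt1*, *Wnt6*, *Wnt8a*, *Wnt9a* and *Wnt10b* are listed at 0 in both.

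Several Wnt genes lie side by side in the genome. On rn6, 4 pairs of members were less than 50000 bp apart with no other gene of the table between them, and all 8 genes of these pairs were ligands. *Wnt9b* ends 22716 bp before *Wnt3* on chr10, and both genes of this pair were listed above 0 in both libraries. *Wnt3a* ends 21107 bp before *Wnt9a* on chr10. *Wnt10b* ends 10730 bp before *Wnt1* on chr7, and *Wnt6* ends 6414 bp before *Wnt10a* on chr9. Of the genes of these last 3 pairs, *Wnt3a* and *Wnt10a* were listed above 0 in CTRL and the others at 0 in both.

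Among the 9 Frizzled genes, which encode the 7-pass receptors of Wnt proteins, 6 were measured, and the deposited FPKM of all 6 was lower in IR12, as it was for 48.2% of all measured genes, although *Fzd3*, *Fzd4*, *Fzd5* and *Fzd6* were higher on the TPM scale. Of the 6, *Fzd1*, *Fzd5* and *Fzd7* passed the minimum in CTRL alone and could not have been higher as deposited. The summed FPKM of all 9 was 34.0 in CTRL and 23.6 in IR12 as deposited, but it would be higher in IR12 with the TPM shift of 0.65. *Fzd1* (ENSRNOG00000016242, chr4:26470864-26475262 on rn6) was the one that passed 2-fold. It had an FPKM of 4.59 in CTRL against 0.761 in IR12 (log2 ratio -1.67 as deposited and -1.21 on the TPM scale). Its coding sequence has no intron, and the read step described above gave 297 reads in CTRL and 84 in IR12. Per unit of the depth implied by the FPKM scale, its level was 6.04 times as high in CTRL, with a 95% exact binomial interval of 4.72 to 7.79. Such intervals cover counting error only, not differences between animals, and the step to reads was chosen after seeing the data. They also take the depth implied by the FPKM scale as given, whereas the study's own read numbers for the libraries differ less between CTRL and IR12 and would make each of these ratios of CTRL to IR12 smaller. In CTRL, *Fzd1* was the most abundant Frizzled gene after *Fzd3*, whereas in IR12 *Fzd4*, *Fzd5* and *Fzd6* were also above it. In bulk tissue, fewer cells of a type and less RNA per cell cannot be told apart, for this gene and for all others described here.

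The promoter of *Fzd1* is shown because *Fzd1* and *Frzb* were the members past 2-fold with an entry among the promoter sequences used here, which run from 250 bases before to 50 bases after the gene's start. It lies at chr4:30264824-30265123 on the plus strand of GRCr8 and was taken from RefSeq, 5′ to 3′. Capitals would mark the TCF/LEF core CTTTGAT or the GC box GGGCGG on either strand, and neither stands in this window.
Fzd1: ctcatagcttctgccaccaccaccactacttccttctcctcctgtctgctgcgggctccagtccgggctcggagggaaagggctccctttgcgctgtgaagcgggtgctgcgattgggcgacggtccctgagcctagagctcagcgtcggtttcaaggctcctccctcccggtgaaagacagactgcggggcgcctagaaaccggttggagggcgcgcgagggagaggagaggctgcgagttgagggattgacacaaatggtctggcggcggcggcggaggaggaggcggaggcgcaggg

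*Fzd3*, which acts in planar cell polarity and axon guidance, was the most abundant Frizzled, with an FPKM of 21.3 in CTRL against 16.9 in IR12. Its log2 ratio was -0.32 as deposited and 0.30 on the TPM scale. *Fzd6*, another receptor of the polarity branch, had 2.89 in CTRL and 1.93 in IR12 (log2 ratio -0.41). Neither passed 2-fold. *Fzd4*, the Norrin receptor, was nearly level, with 1.67 in CTRL and 1.61 in IR12. *Fzd5*, a receptor needed for early eye development, had 1.40 in CTRL and 0.994 in IR12. The step gave 42 and 51 reads for *Fzd5*, a ratio of CTRL to IR12 per unit of depth of 1.41 with a 95% exact binomial interval of 0.912 to 2.16. The difference in *Fzd5* was therefore not detectable at this depth.

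*Fzd7* had an FPKM of 1.09 in CTRL against 0.653 in IR12, from 44 and 45 reads. Its ratio per unit of depth was 1.67, with an interval of 1.08 to 2.59, but on the TPM scale it was level (log2 ratio -0.04), so whether *Fzd7* differed depends on the depth assumed. *Fzd2* had 0.722 in CTRL and 0.667 in IR12, from 19 and 30 reads, and its interval of 0.575 to 1.99 included equal levels. *Fzd9* had 0.399 in CTRL and 0.108 in IR12, from 13 and 6 reads, and its ratio of 3.70 had an interval of 1.31 to 11.9. The lower end of this interval is smaller than the TPM shift, so whether *Fzd9* differed also depends on the depth assumed. Counting error alone was thus wide for the rarer Frizzleds, and *Fzd1* had the most reads of the 5 with a read estimate. *Fzd8* is listed at 0 in both libraries.

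The LRP co-receptors, which Wnt proteins join to Frizzleds to start canonical signalling, were level as deposited. *Lrp6* had an FPKM of 52.4 in CTRL against 51.9 in IR12 (log2 ratio -0.01 as deposited and 0.62 on the TPM scale). *Lrp5*, the co-receptor also used by Norrin, had 1.44 in CTRL and 1.22 in IR12 (log2 ratio -0.13 as deposited and 0.22 on the TPM scale). *Lrp6* was thus the most abundant receptor gene among the members in both libraries.

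Summed over the 10 secreted inhibitor genes, FPKM was 454 in CTRL and 145 in IR12, or 68.3% and 36.5% of the summed FPKM of all members. Of the 5 measured ones, the deposited FPKM of all was lower in IR12, 3 of them past 2-fold, although *Wif1* was level on the TPM scale with a log2 ratio of 0.02. Among all measured genes 48.2% were lower and 6.12% past 2-fold lower as deposited, and *Sfrp1* passed the minimum in CTRL alone. Without *Dkk3* the sum was 55.0 in CTRL and 20.4 in IR12.

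The SFRP proteins and FRZB carry a Frizzled-like domain that binds Wnt proteins outside the cell. *Frzb* (ENSRNOG00000007765, chr3:67635607-67668772 on rn6) fell from an FPKM of 37.5 in CTRL to 11.4 in IR12. Its log2 ratio was -1.64 as deposited and -1.02 on the TPM scale. *Sfrp2* had 12.3 in CTRL and 6.30 in IR12 (log2 ratio -0.86), and was the member just outside the 2-fold limit. *Sfrp1* (ENSRNOG00000017783, chr16:73372007-73410777 on rn6) was the member just inside it, with 2.87 in CTRL and 0.865 in IR12. The log2 ratio of *Sfrp1* was -1.05 as deposited and -0.63 on the TPM scale, where it no longer passed 2-fold. The 3 measured genes of the family were therefore lower in IR12 on both scales. *Sfrp4* was level at 0.274 in CTRL and 0.276 in IR12, and its listed locus overlaps *Nme8*. *Sfrp5* had 0.0363 in CTRL and 0.0213 in IR12, again the ratio of 1.71 that an equal number of reads gives.

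The promoter of *Frzb* lies at chr3:85772047-85772346 on the minus strand of GRCr8 and is given from RefSeq, 5′ to 3′, with capitals for the same motifs, of which it holds none.
Frzb: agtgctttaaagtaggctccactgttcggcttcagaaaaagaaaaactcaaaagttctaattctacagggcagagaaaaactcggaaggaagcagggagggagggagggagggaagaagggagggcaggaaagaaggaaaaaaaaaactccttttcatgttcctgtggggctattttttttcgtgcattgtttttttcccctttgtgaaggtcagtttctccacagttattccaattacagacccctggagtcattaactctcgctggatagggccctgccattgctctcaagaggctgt

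*Wif1*, which binds Wnt proteins through a domain unlike that of Frizzleds, had an FPKM of 1.62 in CTRL against 1.06 in IR12. Its log2 ratio was -0.35 and did not pass 2-fold. The Dickkopf proteins DKK1, DKK2 and DKK4 bind LRP5 and LRP6, whereas DKK3 is a divergent member of the family whose part in Wnt signalling is less clear. *Dkk3* (ENSRNOG00000016343, chr1:176940693-176983045 on rn6) was by far the most abundant member in CTRL, with an FPKM of 399, and fell to 125 in IR12. Its log2 ratio was -1.67 as deposited and -1.02 on the TPM scale. It lay above 98.5% of all measured genes in CTRL and above 94.3% in IR12, and its share of the summed FPKM of the members went from 60.1% to 31.5%. The other Dickkopfs were low. *Dkk2* had 0.312 in CTRL and 0.491 in IR12, and *Dkk4* had 0.0504 and 0.0295. *Dkk1*, the classical inhibitor of the family and itself a β-catenin target, is listed at 0 in both libraries.

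*Dkk3* is also known as a marker of Müller glia, and the marker list of these cells moved with it. All 10 genes of this list were measured, 8 of them 2-fold lower and 1 higher in IR12, against 6.12% and 6.56% of all measured genes. The median log2 ratio of the list was -1.93. Without *Dkk3*, 7 of 9 were lower, and the median was -2.19 as deposited and -1.55 on the TPM scale. Summed over the list, FPKM was 1863 in CTRL and 1233 in IR12 as deposited, but it would be higher in IR12 with the TPM shift of 0.65. By mean FPKM its most abundant gene was *Clu*, which encodes the chaperone clusterin and rose from 223 to 673. *Vim*, an intermediate filament gene, was also higher, with 121 in CTRL and 221 in IR12, and passed 2-fold on the TPM scale alone (log2 ratio 1.51). *Glul*, the gene for glutamine synthetase, fell from 754 to 126. *Aqp4*, the water channel gene, fell from 48.0 to 4.16. *Rlbp1*, which encodes the retinaldehyde-binding protein of these cells, fell from 126 to 26.8. *Slc1a3*, a glutamate transporter gene, fell from 108 to 44.3. *Kcnj10*, a potassium channel gene, *Abca8a*, a transporter gene, and *Sox9*, a glial transcription factor gene, were the remaining 3 past 2-fold, with FPKM of 7.07, 73.4 and 3.99 in CTRL and 0.467, 11.5 and 1.44 in IR12. *Kcnj10* passed the minimum in CTRL alone and could not have been higher. On the TPM scale *Slc1a3* and *Sox9* did not pass 2-fold, at -0.63 and -0.56. The list then had 6 lower and 2 higher genes, against 3.23% and 21.0% of all measured genes on that scale. No gene of the list was at 0 in either library. The part of these glial markers in the fall of *Dkk3* was not tested.

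Marker lists of lens and of the ciliary body and iris were also lower in IR12, as were the 2 measured genes of a fibroblast list. All 9 lens genes fell past 2-fold as deposited, and 7 of 9 on the TPM scale. Among all measured genes, 6.12% were past 2-fold lower as deposited and 3.23% on the TPM scale. The lens list had a summed FPKM of 1822 in CTRL against 227 in IR12. The most abundant lens gene was *Cryaa*, a crystallin gene, with 1118 in CTRL and 124 in IR12. The crystallin genes *Crybb2*, *Crygs*, *Crygb* and *Crygd*, the lens membrane genes *Mip* and *Lim2* and the lens filament genes *Bfsp1* and *Bfsp2* were the others, with log2 ratios between -3.12 and -1.14. Of these, *Bfsp2* passed the minimum in CTRL alone and could not have been higher. Of the 5 genes listed for the epithelium of the ciliary body and iris, the 3 measured ones fell, and the summed FPKM was 21.9 in CTRL and 2.67 in IR12. *Optc* was the most abundant of them, with 15.6 in CTRL and 1.29 in IR12. *Wfdc1* had 4.06 and 0.685, and *Zic1*, which did not pass 2-fold on the TPM scale, had 2.27 and 0.553. *Wfdc1* and *Zic1* passed the minimum in CTRL alone and could not have been higher. *Otx1* is listed at 0 in both libraries and *Msx1* at 0 in CTRL. Of 8 fibroblast genes 2 were measured, *Pdgfra* with 7.28 in CTRL and 1.88 in IR12 and *Fmod* with 2.52 and 0.432. *Fmod* passed the minimum in CTRL alone. Both passed 2-fold as deposited but not on the TPM scale, and the list summed to 11.1 in CTRL and 2.85 in IR12. *Col1a1*, *Col3a1*, *Dcn* and *Lum* stayed under 1 in both libraries, and the collagen gene *Col1a2* and *Ogn* are at 0 in both. The fibroblast list thus rested on *Pdgfra* and *Fmod*. *Frzb*, *Sfrp1* and *Fzd1* were lower in the same library as these lists, and the part of lens, ciliary or connective tissue in their fall was not tested.

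**Figure D3:**
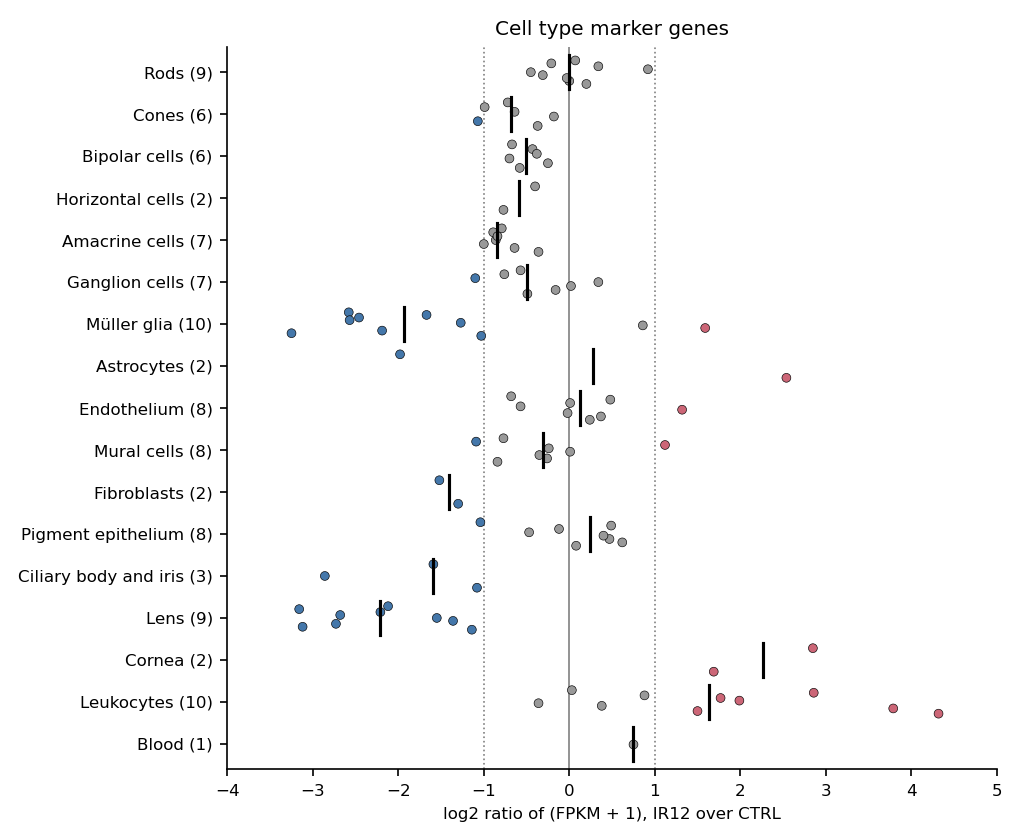
Log2 ratio of (FPKM + 1), IR12 over CTRL, for the measured genes of each cell type list (number in parentheses), 1 point per gene, with genes past 2-fold in red (higher) or blue (lower), black bars at the medians and dotted lines at 2-fold. Lens and Müller glia genes lie mostly left of the lower line, with medians of -2.21 and -1.93, and leukocyte genes mostly to the right, with a median of 1.63, all as deposited; on the TPM scale these medians are -1.68, -1.29 and 1.84.

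*Ctnnb1*, the gene for β-catenin, had an FPKM of 111 in CTRL against 166 in IR12. Its log2 ratio was 0.57 as deposited and 1.22 on the TPM scale, where it was the member past 2-fold upwards. Its share of the summed FPKM of the members went from 16.7% to 41.7%, so that it took the first place from *Dkk3*. *Axin2*, a scaffold of the destruction complex that is itself switched on by β-catenin and is widely used as a readout of the canonical branch, had 3.62 in CTRL and 4.18 in IR12. Its log2 ratio was 0.17 as deposited and 0.67 on the TPM scale. *Lef1*, a DNA-binding partner of β-catenin and also one of its targets, had 0.492 in CTRL and 0.272 in IR12 and was not measured by the limit used here. In these libraries *Axin2* thus differed by less than 2-fold.

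**Figure D4:**
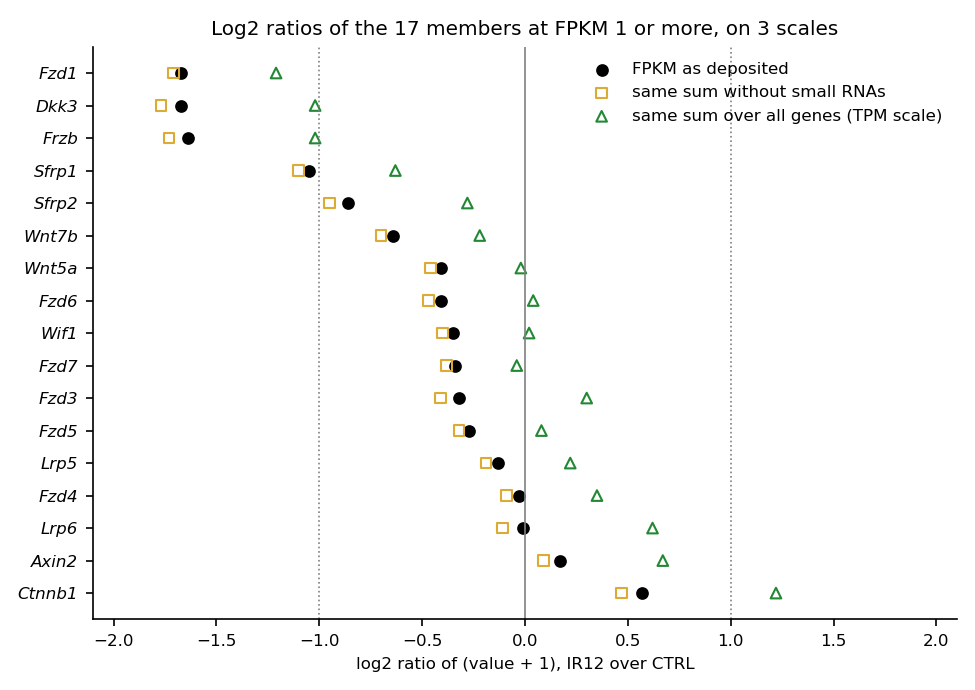
Log2 ratio of (value + 1), IR12 over CTRL, for the 17 measured members on 3 scales: FPKM as deposited (filled circles), rescaled to 1 common total without small RNAs (squares) and rescaled to 1 common total of all genes, the TPM scale (triangles), with dotted lines at 2-fold. *Fzd1*, *Dkk3* and *Frzb* lie left of the lower line on all 3 scales, *Sfrp1* does so on 2 of them, and *Ctnnb1* lies right of the upper line on the TPM scale alone.

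The promoter of *Axin2* is shown because it was the member with a TCF/LEF core in its window. Promoter sequences were matched by symbol for 30 of the 43 members, and none was used for *Dkk2*, *Dkk3*, *Dkk4*, *Fzd2*, *Fzd3*, *Fzd6*, *Lrp5*, *Lrp6*, *Sfrp1*, *Sfrp4*, *Wnt10b*, *Wnt5b* and *Wnt7b*. The letters CTTTGAT, searched on both strands, stood in 1 of the 30 windows and in 3.62% of 27457 rat promoters of the same length. In *Axin2* the match starts 132 bases before the gene's start and is printed in capitals. The window lies at chr10:94398535-94398834 on the plus strand of GRCr8 and comes from RefSeq, 5′ to 3′.
Axin2: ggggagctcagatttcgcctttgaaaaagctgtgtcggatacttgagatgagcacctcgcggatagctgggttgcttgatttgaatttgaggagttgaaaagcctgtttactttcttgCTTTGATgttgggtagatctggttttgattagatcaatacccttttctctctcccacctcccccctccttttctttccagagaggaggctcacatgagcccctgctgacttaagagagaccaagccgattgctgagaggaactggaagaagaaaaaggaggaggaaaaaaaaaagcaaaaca
A match is a description, not a site or a cause, and no match says only that these letters are not in the window. GC content had a median of 65.3% over the 30 windows and 52.3% over all promoters. The GC box GGGCGG, on either strand, stood in 15 of the 30 windows and in 34.9% of all promoters. Of the other motifs searched, an AP-1 site, TGANTCA with N for any base, stood in 2 of the 30 windows and in 7.33% of all promoters, and a TATA box, TATAAA, in 1 of 30 and in 14.3%. The GC box can share at most 1 base with the TCF/LEF core where both meet. *Fzd1* had a GC content of 65.3%, *Frzb* 45.3% and *Axin2* 45.7%, so the shown windows span the members from their median down to their lowest value of 45.3%.

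The rest of the pathway was read from 9 lists with 94 genes, of which 93 were in the table and 68 were measured. As deposited, 1 was 2-fold higher and 5 were 2-fold lower, with a median log2 ratio of -0.18, whereas on the TPM scale 8 were higher and 2 lower and the median was 0.40. Among all measured genes, 6.56% were higher and 6.12% lower as deposited, and 21.0% were higher and 3.23% lower on the TPM scale. *Kremen1*, which encodes a receptor that binds Dickkopf proteins and helps remove LRP6 from the cell surface, was the gene that rose as deposited. It had an FPKM of 4.45 in CTRL against 24.6 in IR12 (log2 ratio 2.23). On the TPM scale *Porcn*, *Ryk*, *Apcdd1*, *Csnk1a1*, *Gsk3a*, *Rhoa* and *Rock2* passed 2-fold upwards as well. The 5 that fell as deposited act at several steps of the pathway. *Nkd1*, an inhibitor that binds Dishevelled and is also a β-catenin target, had 10.5 in CTRL and 1.81 in IR12 (log2 ratio -2.03). *Wls*, the carrier that brings Wnt proteins to the surface of the cells that secrete them, had 16.6 in CTRL and 3.76 in IR12 (log2 ratio -1.89). These were the ones that stayed past 2-fold on the TPM scale, at -1.49 for *Nkd1* and -1.31 for *Wls*. *Ror1*, a receptor for WNT5A, had 3.56 in CTRL and 0.820 in IR12. *Sostdc1*, a secreted inhibitor that binds LRP5 and LRP6, had 2.41 and 0.365. *Celsr2*, a cadherin of the polarity branch, had 5.21 and 1.94. *Ror1* and *Sostdc1* passed the minimum in CTRL alone and could not have been higher.

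For ligand secretion 3 of 5 genes were measured, and their median was -0.56 as deposited and -0.14 on the TPM scale. *Porcn*, the enzyme that attaches the lipid to Wnt proteins, had an FPKM of 10.8 in CTRL against 15.6 in IR12 and *Gpc4*, a glypican of the cell surface, 2.30 and 1.24. Porcupine and the carrier *Wls* thus differed in opposite directions. Among 7 other receptor genes 5 were measured, with a median of -0.46 as deposited and 0.14 on the TPM scale. *Ryk*, a receptor with a WIF domain, had 24.6 in CTRL and 34.3 in IR12, *Tspan12*, which assists FZD4 in Norrin signalling, 15.7 and 11.1, and *Reck*, part of the receptor for WNT7 ligands in brain vessels, 15.8 and 8.79. None of these passed 2-fold as deposited.

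Agonists outside the Wnt family and their receptors had 3 measured genes of 8 and a median of -0.28, or 0.28 on the TPM scale. The R-spondin receptor genes *Lgr4* and *Lgr5* had an FPKM of 56.5 and 7.12 in CTRL and 43.9 and 5.67 in IR12. *Ndp*, the gene for Norrin, had 0.867 in CTRL and 1.52 in IR12. No R-spondin gene was measured. Besides *Kremen1* and *Sostdc1*, the surface inhibitors had 3 more measured genes among 10 in the table, and the median was 0.37 as deposited and 0.67 on the TPM scale. *Apcdd1*, which binds Wnt proteins and LRP5, had 5.39 in CTRL and 10.3 in IR12 and *Shisa2*, which holds Frizzleds inside the cell, 2.40 and 0.753. Neither of the latter passed 2-fold as deposited.

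Of the 11 genes listed for the destruction complex 10 were measured, with a median of 0.00, or 0.63 on the TPM scale. The list leaves out the Axin scaffolds. *Axin2* is described above as a member, and *Axin1*, which the member rule would include, was not in the table under that symbol. *Csnk1a1*, the kinase that primes β-catenin, had an FPKM of 259 in CTRL against 438 in IR12, *Gsk3b*, the kinase that follows it, 75.8 and 64.7, and *Apc*, the scaffold, 67.9 and 69.3. *Tnks2*, a tankyrase that turns over Axin, is listed at 0 in both. None of the 10 passed 2-fold as deposited. Dishevelleds and their regulators had 9 measured genes of 11 and a median of -0.18, or 0.24 on the TPM scale. *Csnk2a1*, a kinase of Dishevelled and β-catenin, had 84.9 in CTRL and 109 in IR12, *Dixdc1*, a protein with a Dishevelled-type DIX domain, 17.6 and 10.8, and *Dvl1*, one of the Dishevelleds, 12.6 and 14.3. *Nkd1* was the one of this list that passed 2-fold as deposited.

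TCF factors and their cofactors had 13 measured genes of 16 and a median of -0.22, or 0.35 on the TPM scale. Most of these were cofactors. *Tcf7l2* was the one TCF gene measured, with 2.23 in CTRL and 0.764 in IR12. Its log2 ratio was -0.87 as deposited and -0.48 on the TPM scale, and it passed the minimum in CTRL alone. *Tcf7* and *Tcf7l1* stayed under 1 in both libraries. *Aes*, a short relative of the Groucho corepressors, had an FPKM of 98.8 in CTRL against 80.7 in IR12, *Hdac1*, a histone deacetylase gene, 34.9 and 42.7, and *Cby1*, which encodes a β-catenin antagonist, 32.6 and 35.9. The polarity branch had 11 measured genes of 13 and a median of -0.07, or 0.52 on the TPM scale. *Rhoa*, a small GTPase gene, had 122 in CTRL and 167 in IR12, and the kinase genes it acts on, *Rock1* and *Rock2*, had 80.4 and 53.6 in CTRL and 67.3 and 69.5 in IR12. In the calcium branch 9 of 12 genes were measured, 8 of them lower in IR12 as deposited and 1 of them lower on the TPM scale, against 48.2% and 15.7% of all measured genes, with medians of -0.37 and 0.27. Its most abundant genes encode kinases. *Camk2d* had 172 in CTRL and 133 in IR12, *Prkca* 125 and 79.7, and *Nlk*, which acts on TCF factors, 67.9 and 47.1.

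**Figure D5:**
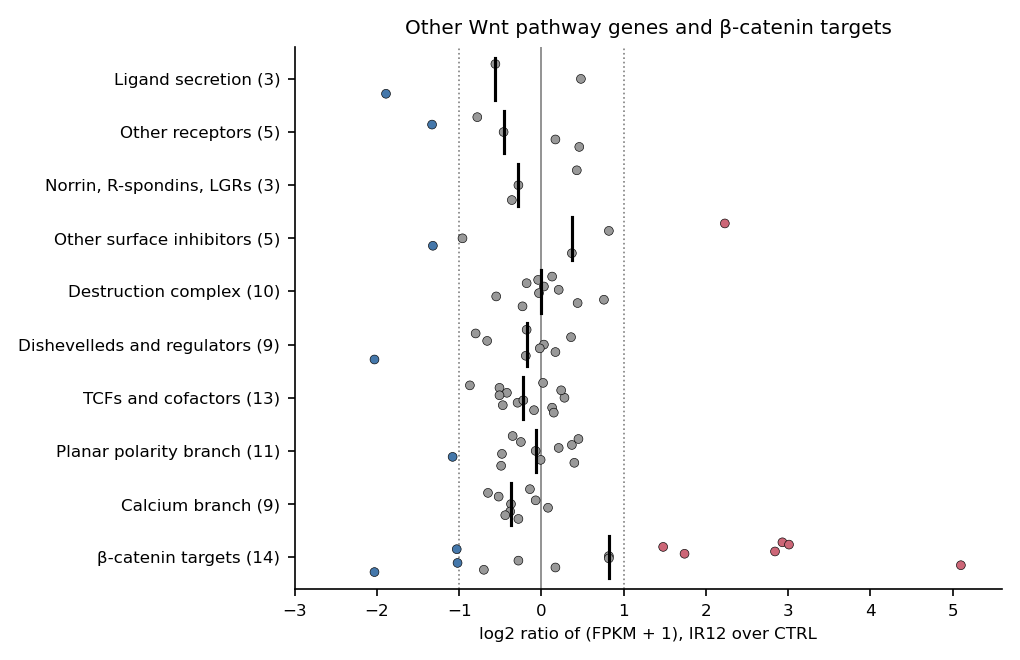
Log2 ratio of (FPKM + 1), IR12 over CTRL, for the measured genes of 9 lists of other Wnt pathway genes and of the β-catenin targets (number in parentheses), 1 point per gene, with genes past 2-fold in red (higher) or blue (lower), black bars at the medians and dotted lines at 2-fold. The pathway lists lie close to 0 as deposited, with medians from -0.56 to 0.37, and the targets spread to both sides of the dotted lines; on the TPM scale the medians of the pathway lists run from -0.14 to 0.67.

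Genes known from other systems as targets of β-catenin and TCF moved in both directions. Of 23 such genes present, 14 were measured, 6 of them 2-fold higher and 3 2-fold lower as deposited, with a median log2 ratio of 0.82. Among all measured genes 6.56% were higher and 6.12% lower as deposited, and 21.0% and 3.23% on the TPM scale. On that scale 8 of the 14 targets were higher and 1 lower. *Mmp7*, which reaches the minimum on the TPM scale alone and there in IR12 alone, made it 9 higher. *Axin2*, *Lef1* and *Dkk1* are members and stand in this list too, and without members 6 of 13 measured targets were higher. *Fosl1*, the gene for the AP-1 subunit FRA1, reached an FPKM of 33.4 in IR12 and is listed at 0 in CTRL. *Plaur*, the urokinase receptor gene, reached 1.80 in IR12 and is at 0 in CTRL as well. *Myc* had 0.0911 in CTRL and 7.79 in IR12 (log2 ratio 3.01). These 3 genes passed the minimum in IR12 alone and could not have been lower as deposited. *Ccnd1*, the gene for cyclin D1, rose from 3.90 to 36.3, a log2 ratio of 2.93. *Cd44*, the hyaluronan receptor gene, was the most abundant target and rose from 40.8 to 299, a log2 ratio of 2.84. *Ccnd2*, the gene for cyclin D2, rose from 8.62 to 31.1. *Nkd1*, *Sox9* and *Id2* were the 3 that fell. *Id2*, an inhibitor of helix-loop-helix factors, had 31.6 in CTRL and 15.1 in IR12 (log2 ratio -1.02 as deposited and -0.40 on the TPM scale). The targets past 2-fold thus did not share a direction as deposited.

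Leukocyte genes were higher in the library in which these targets were higher. Of the 10 leukocyte and microglia genes all were measured, 6 were 2-fold higher and none lower, against 6.56% and 6.12% of all measured genes, and their summed FPKM was 21.8 in CTRL and 138 in IR12. The most abundant was the lysozyme gene *Lyz2*, and *Ptprc*, the gene for the pan-leukocyte marker CD45, had 0.408 in CTRL and 2.98 in IR12. *S100a8* reached 12.8 in IR12 from a listed 0 in CTRL, and *S100a9*, *Itgam* and *Cd14* were the others past 2-fold. Of the 6, all but *Lyz2* passed the minimum in IR12 alone and could not have been lower. *Cx3cr1*, the microglial chemokine receptor gene, had 1.16 and 0.676. The part of these cells in the rise of *Cd44*, *Plaur* and the other targets was not tested.

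Vessel genes are of interest beside *Fzd4*, *Lrp5*, *Tspan12* and *Ndp*, whose products act together in retinal endothelium. Of 9 endothelial genes present, 8 were measured, with a median of 0.12 as deposited and 0.57 on the TPM scale and a summed FPKM of 134 in CTRL against 114 in IR12. The most abundant was *Kdr*, the gene for VEGF receptor 2, with 108 in CTRL and 66.8 in IR12. *Flt1*, the gene for VEGF receptor 1, rose from 12.3 to 32.3 and was the one past 2-fold. Of 10 mural cell genes 8 were measured, with a median of -0.31 as deposited and 0.12 on the TPM scale, and the list summed to 59.9 and 34.8. The pericyte gene *Rgs5* was the most abundant, with 38.6 in CTRL and 17.6 in IR12, and passed 2-fold as deposited but not on the TPM scale. *Des*, the desmin gene, had 0.296 in CTRL and 1.81 in IR12 and was the one past 2-fold higher. It passed the minimum in IR12 alone and could not have been lower as deposited. Among all measured genes, 6.56% were past 2-fold higher and 6.12% past 2-fold lower as deposited. *Fzd4* and *Lrp5* thus did not pass 2-fold in libraries where the endothelial list had a median of 0.12 as deposited. Its genes did not move together, since *Kdr*, which made up most of the sum, was lower and *Flt1* higher.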

How the data were processed

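The data are 2 rat retina libraries, 1 of CTRL and 1 of IR12. According to the submitters' processing notes, the authors used STAR 2.5.2b, Cuffdiff 2.2.0 and rn6, and they deposited 1 FPKM column per library for genes with Ensembl identifiers and loci. How the FPKM denominator was set is not given in the sources used here. Columns were matched to samples by name, and listed starts, which count from 0, were raised by 1.

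Log2 ratios of FPKM as deposited were computed with a pseudocount of 1. Genes at an FPKM of 1 or more in either library were counted, and a call was a 2-fold change. No test was possible with 1 library per condition. Named are all members, every gene past 2-fold and the 3 with the highest mean FPKM in each pathway and target list, the most abundant gene and those past 2-fold in each cell type list other than rods, and the members nearest the limit. Other named genes, such as *Gnat1*, *Nrl*, *Sag*, *Otx2*, *Tnks2*, *Vim* and *Cx3cr1*, were chosen after their values were seen. Lists for 9 steps of the pathway, for β-catenin targets and for 17 cell or tissue types were written from general knowledge. The members, lists and rule were chosen with earlier results of these data known. Listed genes not found under the symbol used (*Znrf3*, *Pecam1*, *Cpamd8*, *Hba1*, *Hba2*) were left out of the lists, and the table holds α-globin genes under other symbols.

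Relative depth was read from olfactory receptor genes with loci of 800 to 1100 bp, a step chosen after seeing the data. With a length offset of 202 bp, 100% of 43 values in CTRL and 97.5% of 121 values in IR12 lay within 0.05 of whole reads, for library sizes of 15.4 M and 26.3 M reads, which need not be the reads sequenced. Ratios of read estimates have 95% exact (Clopper-Pearson) binomial intervals. Promoters came from RefSeq (GRCr8).

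The alternatives tried were centring on the median gene, a pseudocount of 0.1, a common total with all genes (TPM scale) or without small RNAs (recognised by symbol), other minimums and a 1.5-fold limit. The scripts were tested on simulated data. They ran on Python 3.11.15 with matplotlib 3.10.9, scipy 1.17.1, pandas 2.3.3 and numpy 2.4.6.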

Additional observations from a re-analysis of the deposited data

How the results depend on the processing

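No library could be left out, since each condition had 1, and no paired analysis was possible because the sources do not pair the samples. Of 59 alternative values of the counts and medians, 47 stayed within 1.5 times the count or 0.1 of the median. On the TPM scale the number of members past 2-fold upwards was 1 in place of 0, and their median turned from -0.35 to 0.03. On that scale other pathway genes past 2-fold came to 8 higher and 2 lower, in place of 1 and 5, and 1 target in place of 3 was lower. With a minimum FPKM of 5, 2 members and 3 other pathway genes were lower, and the median of the members was -0.59. The median was -0.57 with a pseudocount of 0.1 and -0.03 with no minimum, where members listed at 0 enter. With a 1.5-fold limit 3 other pathway genes were higher and 11 lower. Leaving out *Dkk3*, an alternative chosen after seeing the data, gave a median of -0.34. Sums of FPKM are as deposited. The TPM shift of 0.65 would turn the direction of the sums of the Wnt ligand, Frizzled, Müller glia and endothelial genes. It would also turn the sums of the cone, bipolar, ganglion cell and astrocyte lists. The cause of the differences between scales was not tested. Of 85 alternative log2 ratios of single members none reversed a call, 74 kept direction and side of the limit, and 7, all on the TPM scale and none past 2-fold, changed sign. The 1.5-fold limit supplies 17 of the 85 and leaves each ratio as it was, and centring or rescaling shifts all genes alike apart from the pseudocount, so the 74 say little about single genes. Depth limits the members under 1, and the FPKM of *Wnt8b*, *Sfrp5* and *Dkk4* may rest on 1 read in each library.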

Other observations

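Neurons other than rods had mostly lower marker levels in IR12 as deposited. Among all measured genes 48.2% were lower as deposited and 15.7% on the TPM scale. The 6 cone genes were all lower, with a median log2 ratio of -0.68 and a summed FPKM of 495 in CTRL and 324 in IR12, although *Gnat2* and *Opn1mw* were higher on the TPM scale. *Gnat2*, a cone transducin gene, was the most abundant, with 179 and 138, and *Opn1sw*, the short-wavelength opsin gene, passed 2-fold as deposited, with 6.68 and 2.66, but not on the TPM scale (log2 ratio -0.54). The 7 amacrine genes were also all lower as deposited, with a median of -0.84 and sums of 678 and 407, and 5 of them on the TPM scale. *Calb2*, their most abundant gene, had 275 and 148, and *Tfap2a* passed the minimum in CTRL alone and could not have been higher. The 6 measured bipolar genes had a median of -0.50, or 0.11 on the TPM scale, with sums of 446 and 327, and *Trpm1*, the channel gene of ON bipolar cells, had 189 and 159. Both measured horizontal cell genes were lower as deposited, with sums of 77.0 and 45.2 over 4 genes. *Calb1*, which made up most of these sums, had 74.2 and 43.2. On the TPM scale both were nearly level, with log2 ratios of -0.13 for *Calb1* and -0.02 for *Onecut1*. Of the 7 measured ganglion cell genes, the transcription factor gene *Pou4f2* passed 2-fold as deposited, with 3.41 and 1.06, but not on the TPM scale (log2 ratio -0.65), while *Nefl*, the most abundant, had 132 and 88.8. The median of the ganglion cell list was -0.49, or 0.14 on the TPM scale, and the sums were 314 and 252. Of its 7 measured genes, 5 were lower as deposited, while 5 were higher on the TPM scale. Among them *Pou4f3* passed the minimum in CTRL alone and could not have been higher.

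Outside the neurons, the astrocyte list held genes that differed in opposite directions. *Gfap*, the filament gene of reactive glia, rose from 2.95 to 21.9, while *S100b* fell from 25.8 to 5.81, and *Pax2* is listed at 0 in CTRL. Their sum, with *Aldh1l1*, was 28.8 and 27.8. Of 4 corneal genes 2 were measured, and both were past 2-fold higher in IR12 on both scales. Among all measured genes 6.56% were past 2-fold higher as deposited and 21.0% on the TPM scale. *Krt12* had 0.874 and 12.5 and *Aldh3a1* 1.68 and 7.61, and the list summed to 2.55 and 20.8. *Krt12* passed the minimum in IR12 alone and could not have been lower, and *Krt5* and *Krt14* are at 0 in CTRL. Pigment epithelium genes had a median of 0.24 over 8 measured genes, sums of 116 and 148 and *Ttr* as the most abundant at 61.8 and 87.4. *Rpe65*, the visual cycle gene, passed 2-fold downwards as deposited, with 11.1 and 4.88, but not on the TPM scale, where *Ttr*, *Dct* and *Rgr* passed it upwards and the median was 0.63. The globin gene *Hbb* had 20.4 and 35.1 and passed 2-fold on the TPM scale alone (log2 ratio 1.37), in a blood list with sums of 20.8 and 35.3. The α-globin genes *Hba-a2* and *Hba-a3*, which the list missed because it held other symbols, were both past 2-fold higher in IR12, *Hba-a2* with 6.77 and 17.1.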
